A study of Mus musculus with 5 samples.

Results

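The genes described here encode the receptors through which neutrophils sense granulocyte colony-stimulating factor (G-CSF) and granulocyte-macrophage colony-stimulating factor (GM-CSF). They were taken by name from the count matrix, and all 5 of them, Csf3r, Csf2ra, Csf2rb, Csf2rb2 and Il2rg, were found among its 21995 genes. Single-cell RNA sequencing with the BD Rhapsody system had been applied to viable CD11b+ Ly6G+ cells, sorted from C57BL/6 mice kept without infection or treatment; the tissues were lung, liver, intestine, spleen, bone marrow and blood. Young mice (10 weeks in the sample labels; the series' design text gives a slightly lower age) and old mice (20 months) were processed together, and the experiment was run in 2 rounds, each in its own cartridge. The runs are called the YO1 and YO2 pools. A barcode names its pool and not the tissue or the age of its mouse, so every value is a mixture of 6 tissues and both ages, and no comparison between ages or tissues was made. Every cell had passed a gate for the neutrophil surface protein Ly6G, and no group had been stimulated.

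After filtering (at least 200 UMIs, at least 100 genes, under 20% mitochondrial UMIs), 19505 cells of YO1 and 17215 of YO2 remained, with a median of 1231 and 1454 UMIs per cell. A UMI is a molecular tag that counts 1 captured transcript. The pools shared 406 cell numbers, and 0 of these pairs had the same UMI total. Cells were classed by gates that hold none of the 5 genes. Progenitors had at least 10 UMIs of Elane, Mpo and Prtn3 (enzymes of the azurophil granules), and cycling cells at least 2 UMIs of Mki67 and Top2a. Ltf-high immature cells had at least 5 UMIs of Ltf (lactoferrin, of the specific granules), and Ngp-high cells at least 10 UMIs of Ngp with fewer than 5 of Ltf. Mature neutrophils had S100a8 and S100a9 at 2% or more of their UMIs with fewer than 3 of Ngp, and activated neutrophils at least 3 UMIs of Il1a, Icam1 and Nr4a3. Eosinophil and monocyte gates needed at least 3 UMIs of a marker list, and any cell with such a marker sum for another lineage stayed out of the neutrophil classes. A cell with 1 such list was classed by it even where it also met the mature gate.

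The classes held 36 progenitors in YO1 and 0 in YO2, 558 and 77 cycling cells, 2098 and 437 Ltf-high cells, 417 and 32 Ngp-high cells, 25 and 564 activated cells, 325 and 99 cells gated on eosinophil genes, 1727 and 1455 monocytes, and 9596 and 9308 mature cells. Another 3415 cells of YO1 (17.5%) and 4161 of YO2 (24.2%) met no gate or several. Median depth differed between classes, at 6342 UMIs in progenitors, 5768 and 6423 in cycling cells, 2935.5 and 4164 in Ltf-high cells, and 1006 and 1330 in mature cells. Camp, a specific granule gene that no gate used, stood at 19923 and 16388 CPM (UMIs scaled to a class total of 1e6) in cycling cells, against 66.6 and 8.57 CPM in mature cells. Ly6g transcripts ran the same way, at 572 and 786 CPM in cycling cells and 149 and 97.6 CPM in mature cells. Both genes were thus higher in cycling than in mature cells in each pool. Their values in the other stages are not given here, so those stage names rest on the gates alone. The eosinophil gate gave different cells in the pools, as described with that class. Before the lineage lists were applied, 142 cells of YO1 met the progenitor gate. Of these, 120 held a UMI of Nkg7, a gene of the T and NK list, while Cd3e, Cd3g, Trbc2 and Klrb1c were at 0. Progenitor values describe the 36 cells left by the lists. Among all 142, Csf3r stood at 128, Csf2ra at 444 and Csf2rb at 188 CPM. The 36 cells had 188, 419 and 265 CPM. How many cells Nkg7 alone removed was not counted.

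G-CSF acts through a homodimer of the Csf3r product and drives granulocyte production and release from the marrow. GM-CSF binds the alpha chain encoded by Csf2ra, which signals together with the common beta chain encoded by Csf2rb. That beta chain also serves the interleukin-3 and interleukin-5 receptors, whose alpha chains are encoded by Il3ra and Il5ra. Mice carry a second beta chain gene, Csf2rb2, whose product pairs with the interleukin-3 alpha chain. Il2rg encodes the common gamma chain of the receptors for interleukins 2, 4, 7, 9, 15 and 21, and is best known from lymphocytes. The beta chains and Csf3r signal largely through the kinase Jak2 and the gamma chain through Jak3, and STAT proteins carry the signal on.

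The beta chain genes are neighbours and near copies, so the sequence that tells them apart bears on every count. In the annotation of GENCODE vM21 on GRCm38, Csf2rb lies at chr15:78325752-78353847 on the plus strand and Csf2rb2 at chr15:78282507-78305721 on the minus strand. Their coding sequences are 95.2% identical over 2631 aligned bases. Of all 42-base windows in the coding sequence (the length of the second read), 30.9% of those in Csf2rb and 31.5% of those in Csf2rb2 occur in the other gene. In the last 500 bases of either transcript, 0 of 459 such windows are shared. The library kit primes at the transcript's 3' end, but where the authors' reads fell is not given in the sources used here, so reads split between the pair stay uncertain. Coding bases 2548 to 2637 of both genes are shown to make the copies visible, 5' to 3', with the 7 bases that differ in capitals.

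Csf2rb: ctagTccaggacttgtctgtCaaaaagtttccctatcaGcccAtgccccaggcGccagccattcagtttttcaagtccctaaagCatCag
Csf2rb2: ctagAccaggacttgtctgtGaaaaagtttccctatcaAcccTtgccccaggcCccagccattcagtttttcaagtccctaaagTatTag

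Csf3r lies at chr4:126024550-126044440 on the plus strand, Csf2ra at chr19:61223957-61228429 on the minus strand and Il2rg at chrX:101264378-101268255 on the minus strand; all 5 genes are protein coding. Start regions of Csf3r and Csf2ra are shown because these genes encode the chains that bind G-CSF and GM-CSF. They are RefSeq windows on GRCm38.p6 from 250 bases before to 50 after a gene start, chr4:126024409-126024708 on the plus strand and chr19:61228369-61228668 on the minus strand, with motif matches in capitals. The motifs searched on both strands were the core GAGGAA of PU.1 (a myeloid transcription factor), found in 28.3% of 32851 such windows, and TTNNGNAA of the C/EBP factors, found in 40.7%. The Csf3r window held 1 match to the PU.1 core and 0 to the C/EBP motif. The Csf2ra window held 2 adjoining PU.1 cores and 1 C/EBP match that begins ahead of them. The windows of Csf2rb2, with 2 PU.1 cores and 2 C/EBP matches of which a pair overlaps, and of Il2rg, with 0 of each, are not printed. A match is a description of letters in the window, not of binding.

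Csf3r: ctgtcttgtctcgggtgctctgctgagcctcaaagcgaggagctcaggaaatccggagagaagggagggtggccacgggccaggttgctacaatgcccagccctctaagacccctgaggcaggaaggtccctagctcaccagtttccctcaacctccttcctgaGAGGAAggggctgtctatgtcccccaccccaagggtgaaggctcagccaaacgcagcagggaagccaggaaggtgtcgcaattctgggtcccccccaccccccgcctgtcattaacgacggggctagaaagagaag
Csf2ra: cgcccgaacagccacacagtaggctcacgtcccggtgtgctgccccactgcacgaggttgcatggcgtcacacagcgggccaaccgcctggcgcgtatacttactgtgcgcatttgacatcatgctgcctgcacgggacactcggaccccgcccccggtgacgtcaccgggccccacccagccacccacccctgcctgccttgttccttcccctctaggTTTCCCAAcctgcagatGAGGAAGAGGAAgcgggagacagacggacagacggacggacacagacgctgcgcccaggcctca

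Among the 8 classes, Csf3r was highest in mature cells, though cells just below their S100a8 and S100a9 gate were as high, as given with the mature subsets. It stood at 188 CPM in progenitors (YO1), 138 and 269 CPM in cycling cells, 276 and 469 CPM in Ltf-high cells, 526 and 839 CPM in Ngp-high cells and 2354 and 2517 CPM in mature cells (YO1, then YO2 in each). Outside the granule stages it stood at 1227 and 1264 CPM in activated cells, 296 and 330 CPM in cells gated on eosinophil genes and 481 and 641 CPM in monocytes. Under these gates mature cells were thus the highest class in both pools and activated cells came next, with no overlap with any other of the 8 classes. The place of activated cells in YO1 depended on the gates. With the neutrophil gates given priority over the lineage lists, 99 activated cells held 375 CPM, below Ngp-high cells at 499 CPM. Under stricter gates 4 activated cells held 319 CPM, against 452 CPM. In both settings mature cells stayed highest in both pools, and activated cells of YO2 stayed next (817 and 1193 CPM). Cells that should lack the gene were not at 0. T and NK cells (89 and 54 cells) held 275 and 488 CPM, B and plasma cells 432 and 206 CPM, and endothelial cells 528 and 177 CPM.

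The Csf3r values of progenitors, cycling cells, Ltf-high cells and cells gated on eosinophil genes lay inside or below the range of these cells, 177 to 528 CPM. The YO1 values of Ngp-high cells (526 CPM) and monocytes (481 CPM) also lay inside it, and their YO2 values (839 and 641 CPM) above it. The progenitor, cycling and Ltf-high values were thus not distinguishable from the level in cells that should lack the gene, although within YO2 the Ltf-high value was above those of B and plasma cells and endothelial cells. The lymphoid and endothelial classes could hold cells that also met the mature gate, and no doublets were removed. Their level was thus not shown to be a pure background. Whether the early values came from free RNA or from low expression was not tested. After thinning every cell to 500 UMIs, Csf3r was found in 12.2% and 17.4% of Ltf-high cells and in 67.5% and 70.2% of mature cells, against 7.95% and 16.7% of T and NK cells and 17.5% and 7.5% of endothelial cells. Without thinning, the shares were 44.3% and 66.1% of Ltf-high cells and 88.0% and 94.7% of mature cells, with 12.4% and 29.6% of T and NK cells (median 1437 and 2705.5 UMIs). Ngp-high cells, at 19.4% and 31.2% after thinning, stood above the T and NK cells and below the mature cells in both pools. In YO1 they were close to the endothelial cells (17.5%), and in YO2 they were above them (7.5%).

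**Figure D1:**
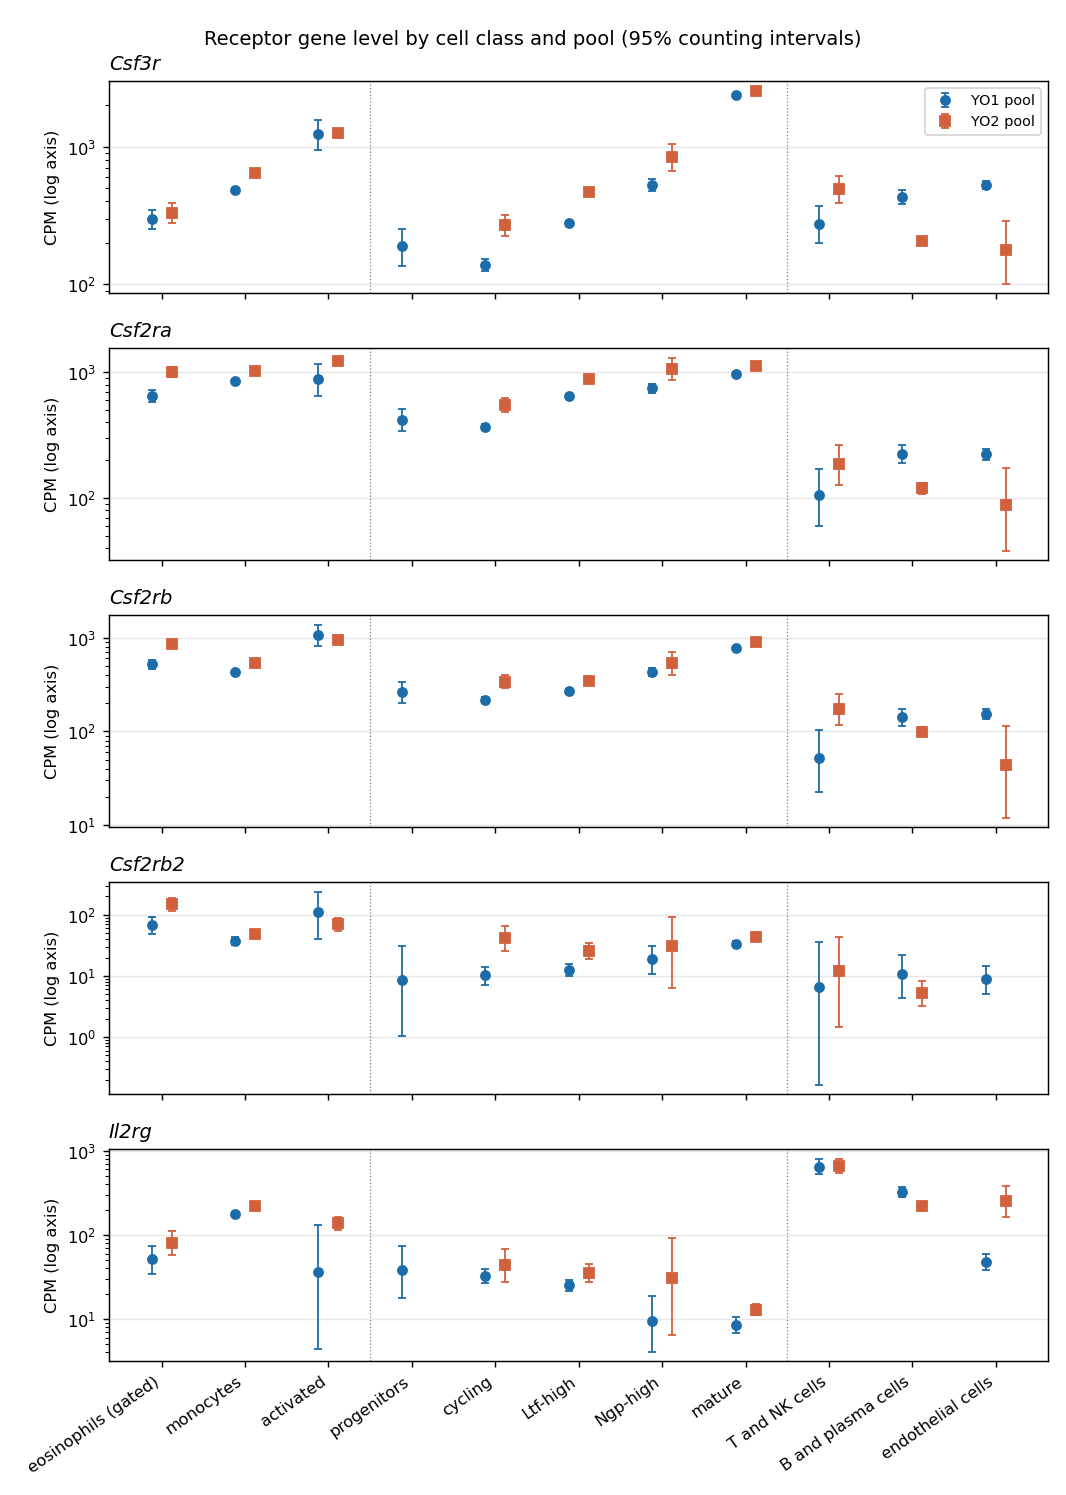
Level of each gene in CPM (log axis) by class, with circles for the YO1 pool, squares for YO2 and bars for 95% Poisson intervals (counting error only). Csf3r was highest in mature cells (2354 and 2517 CPM) and Il2rg lowest there (8.53 and 12.96 CPM). T and NK, B and plasma and endothelial cells at the right are comparison classes for the first 4 genes. The endothelial value of Csf2rb2 in YO2 (0 UMIs) is not drawn.

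In the edgeR quasi-likelihood fit of UMI sums per class and pool (pool as a block, Benjamini-Hochberg adjustment over 10512 genes, two-sided), Csf3r was lower than in mature cells in all 7 classes. The log2 change was -4.32 ± 0.37 in progenitors (SE), -4.22 ± 0.26 in cycling cells, -2.79 ± 0.24 in Ltf-high cells and -2.07 ± 0.24 in Ngp-high cells, with adjusted p from 1.0e-11 to 3.3e-06. It was -1.60 ± 0.30 in activated cells (adjusted p = 0.00044), -3.88 ± 0.25 in cells gated on eosinophil genes and -2.94 ± 0.24 in monocytes (adjusted p = 7.4e-10 or less for these last classes). The lowest classes were within or below the level of the lymphoid and endothelial cells, which limits what the size of their folds can show. The activated value was -2.89 (adjusted p = 3.3e-05) when the neutrophil gates were given priority over the lineage lists. That alternative keeps cells with markers of another lineage in the neutrophil classes, moves cells out of the eosinophil and monocyte classes (1386 and 1064 monocytes are left), and raises the activated cells of YO1 to 99, so that a second activated sum enters the fit; these changes were not separated. The error is the disagreement of the 2 pools, not of animals; progenitors and activated cells entered with 1 sum each, which is assumed to vary like the others.

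Cxcr2, the chemokine receptor of released neutrophils, was already high where Csf3r was not. In Ngp-high cells Cxcr2 stood at 2370 and 2767 CPM, against 3124 and 3946 CPM in mature cells, while Csf3r was at 526 and 839 CPM against 2354 and 2517 CPM. Csf3r UMIs per Cxcr2 UMI were 0.606 and 0.489 in cycling cells, 0.303 and 0.406 in Ltf-high cells, 0.222 and 0.303 in Ngp-high cells and 0.754 and 0.638 in mature cells. Ltf-high and Ngp-high cells had a lower ratio than mature cells in both pools, whereas T and NK cells (0.933 and 0.827) and B and plasma cells (0.852 and 0.768) lay above it. In activated cells the ratio was 1.20 and 0.906, with Cxcr2 at 1026 and 1395 CPM.

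Cells outside all lineage lists and below the progenitor, cycling, Ltf and activated gates were also binned by Ngp, which gave a stepwise pattern for Csf3r. The bins of 10 or more Ngp UMIs (335 and 82 cells in YO1) hold the Ngp-high class, so they divide that class and are not independent of it. In YO1 it stood at 482 CPM in cells with 30 or more Ngp UMIs, 538 CPM with 10 to 29, 1044 CPM with 3 to 9, 1988 CPM with 1 to 2 and 2271 CPM with 0. Cells of YO2 had 916, 800, 1462, 2163 and 2441 CPM in the same bins. The first 2 bins changed order between the pools (11 and 21 cells in YO2), and every later bin was higher than the one before it in both. Csf3r was also lower at the other end, along the UMIs of Il1a, Icam1 and Nr4a3 per cell. It was 2229, 1710, 1499, 1385 and 899 CPM in YO1 and 2461, 2010, 1659, 1458 and 1208 CPM in YO2 at 0, 1, 2, 3 and 4 or more UMIs. The last 2 bins of YO1 hold 16 and 9 cells. Median depth moved with these bins, at 983 UMIs in the first and 1361 in the last bin of YO1 and 1298 and 1571 in YO2. Along the Ngp bins it moved more, from 2170.5 UMIs at 30 or more to 966 at 0 in YO1 and from 3204 to 1303 in YO2. The part of depth in either result was not tested.

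**Figure D2:**
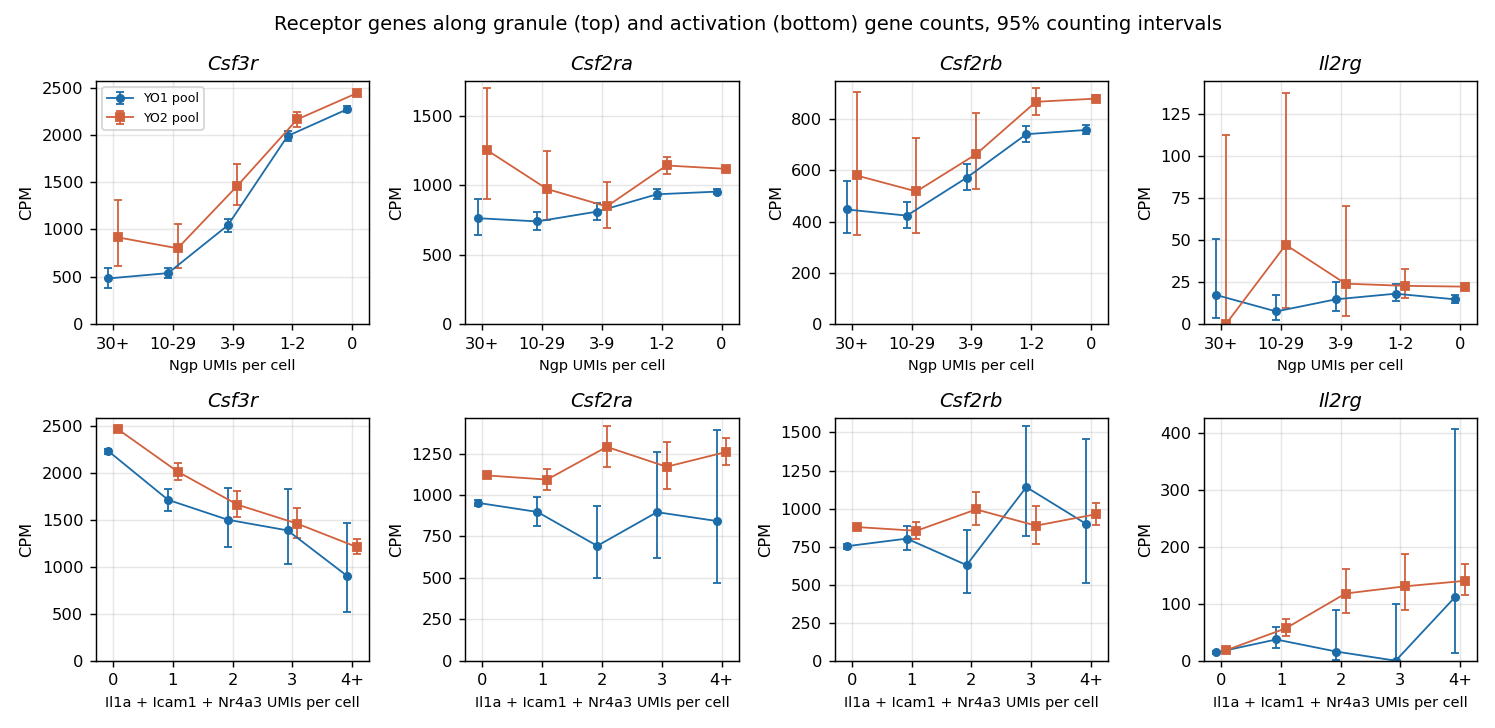
Level of 4 of the genes in CPM along the Ngp UMIs per cell (top row, from many to none) and the summed Il1a, Icam1 and Nr4a3 UMIs per cell (bottom row, from none to many), with circles for YO1, squares for YO2 and bars for 95% Poisson intervals. Csf3r was highest at the low end of both scales (2271 and 2441 CPM at 0 Ngp UMIs, 2229 and 2461 CPM at 0 activation UMIs), and Il2rg in YO2 was higher with more activation UMIs (18.3 CPM at 0, 140 CPM at 4 or more).

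The GM-CSF receptor alpha chain gene Csf2ra stood above its level in lymphoid and endothelial cells in every neutrophil class. It stood at 419 CPM in progenitors, 369 and 549 CPM in cycling cells, 647 and 888 CPM in Ltf-high cells, 744 and 1067 CPM in Ngp-high cells and 978 and 1129 CPM in mature cells. Activated cells held 879 and 1237 CPM, cells gated on eosinophil genes 648 and 1013 CPM and monocytes 859 and 1032 CPM. All of these exceeded the lymphoid and endothelial classes, where the highest value was 225 CPM in B and plasma cells of YO1. From Ltf-high cells upward, each class overlapped the next one in the order of levels. After thinning, a Csf2ra UMI was found in 26.3% and 34.6% of Ltf-high cells, 45.8% and 45.4% of activated cells and 37.2% and 40.9% of mature cells.

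Csf2ra was called lower than in mature cells in progenitors (-1.97 ± 0.30 log2, edgeR adjusted p = 2.1e-05) and cycling cells (-1.77 ± 0.22, adjusted p = 2.9e-07). In Ltf-high cells it was at the threshold (-0.51 ± 0.21, adjusted p = 0.049) and lost the call without the pool block (-0.49), with the neutrophil gates given priority (-0.58), without the deepest 5% of cells (-0.47) and without any single Ltf-high or mature sum (-0.59 to -0.38). Ngp-high cells (-0.42 ± 0.21, adjusted p = 0.22) and activated cells (-0.38 ± 0.27, adjusted p = 0.31) did not pass. Monocytes (-0.96 ± 0.21, adjusted p = 0.00032) and cells gated on eosinophil genes (-1.28 ± 0.21, adjusted p = 2.5e-05) passed under TMM scaling, but with total UMIs as the scale the values were -0.16 and -0.37 with adjusted p of 0.43 and 0.085.

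Csf2rb, the signalling beta chain, was lower through the Ltf-high stage. It stood at 265 CPM in progenitors, 214 and 338 CPM in cycling cells, 270 and 341 CPM in Ltf-high cells, 428 and 539 CPM in Ngp-high cells and 777 and 902 CPM in mature cells. Activated cells, at 1062 and 942 CPM, were the highest of the neutrophil classes in both pools, and monocytes held 435 and 541 CPM. Cells gated on eosinophil genes held 521 and 847 CPM. In lymphoid and endothelial cells the level was 44.2 to 175 CPM, below every neutrophil class. The fitted log2 changes against mature cells were -2.31 ± 0.33 in progenitors, -2.19 ± 0.23 in cycling cells, -1.50 ± 0.22 in Ltf-high cells and -0.95 ± 0.23 in Ngp-high cells, with edgeR adjusted p from 2.9e-08 to 0.0058. The Ngp-high call was lost without the Ngp-high sum of YO2 (-0.78, adjusted p = 0.052) and without the mature sum of YO1 (-0.83, adjusted p = 0.098).

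Activated cells did not pass for Csf2rb (-0.44 ± 0.27, adjusted p = 0.25) although its CPM were higher; on total UMIs the value was -0.04. Monocytes (-1.59 ± 0.22, adjusted p = 1.4e-06) were called lower. Cells gated on eosinophil genes were too (-1.23 ± 0.22, adjusted p = 5.4e-05), but not with total UMIs as the scale (-0.33, adjusted p = 0.14). In single cells, UMIs of Csf2ra together with a beta chain gene were found in 32.8% and 50.1% of mature cells, and together with Csf3r in 29.5% and 48.0%. No UMI of Csf3r, Csf2ra or a beta chain gene was found in 3.01% and 0.666% of mature cells. These shares depend on depth.

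The second beta chain gene, Csf2rb2, had 8.55 CPM in progenitors (2 UMIs), 10.2 and 42.04 CPM in cycling cells and 12.6 and 26.0 CPM in Ltf-high cells. It had 18.9 and 31.1 CPM in Ngp-high cells (16 and 3 UMIs) and 33.1 and 43.8 CPM in mature cells. Activated cells held 110 and 70.7 CPM, on 6 and 70 UMIs. Cells gated on eosinophil genes held 68.7 and 149 CPM and monocytes 37.8 and 49.4 CPM. Lymphoid and endothelial classes lay between 0 and 12.05 CPM, so progenitors and the cycling cells of YO1 were not above them. Ltf-high cells of YO1 were barely above. Csf2rb2 was called lower in progenitors (-2.61 ± 0.90, edgeR adjusted p = 0.026), cycling cells (-1.61 ± 0.30, adjusted p = 6.5e-05) and Ltf-high cells (-1.12 ± 0.24, adjusted p = 0.00065). The progenitor call was lost with total UMIs (-1.78), with DESeq2 (-1.81), without the pool block (-2.997) and without the mature sum of YO1 (-2.20).

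For cycling cells, leaving out the cycling sum of YO1 gave -0.69 (edgeR adjusted p = 0.15), and for Ltf-high cells, leaving out the Ltf-high sum of YO1 gave -0.92 (adjusted p = 0.053). Ngp-high cells (-0.73 ± 0.42, adjusted p = 0.29), activated cells (0.10 ± 0.32, adjusted p = 0.85) and cells gated on eosinophil genes (0.53 ± 0.26, adjusted p = 0.078) did not pass for Csf2rb2; the last of these passed on total UMIs (1.44), with DESeq2 (1.11), and without the YO1 sum of that class (0.78) or of mature cells (0.81). The monocyte call (-0.62 ± 0.21, adjusted p = 0.013) was not stable: total UMIs as the scale turned the value to 0.18, and leaving out the mature sum of YO1 or the monocyte sum of YO2 gave -0.33 and -0.36 with adjusted p of 0.33 and 0.29.

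Unlike the other genes, Il2rg had its lowest level in mature cells. Its highest classes by the mean of the pools were monocytes, activated cells and cells gated on eosinophil genes, which were also the highest for Csf2rb2. Mature cells held 8.53 and 12.96 CPM (90 and 180 UMIs), with 0.823% and 1.74% of cells holding a UMI. Progenitors had 38.5 CPM, cycling cells 32.6 and 44.1 CPM, Ltf-high cells 25.1 and 35.6 CPM and Ngp-high cells 9.46 and 31.1 CPM (8 and 3 UMIs), the YO1 value within counting error of the mature one. Activated cells had 36.6 CPM in YO1 (2 UMIs, interval 4.44 to 132) and 137 CPM in YO2 (136 UMIs, interval 115 to 163). Cells gated on eosinophil genes had 51.1 and 80.9 CPM and monocytes 177 and 219 CPM. Lymphocytes, the textbook site of the gamma chain, had more: T and NK cells 649 and 669 CPM, B and plasma cells 327 and 220 CPM. Endothelial cells had 47.7 and 254 CPM, with 23 UMIs over 40 cells in YO2. After thinning, a UMI was found in 1.49% and 1.60% of Ltf-high cells, 6.56% of activated cells of YO2, 8.25% and 9.83% of monocytes and 0.351% and 0.666% of mature cells, against 28.4% and 40.7% of T and NK cells. With the neutrophil gates given priority over the lineage lists, Ngp-high cells of YO1 (12.8 CPM) lay below mature cells (23.5 CPM). Under stricter gates Ngp-high cells of YO2 did (0 against 11.9 CPM). In the other pool of each setting mature cells stayed below Ngp-high cells.

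Il2rg was higher than in mature cells by 3.03 ± 0.24 log2 in activated cells (edgeR adjusted p = 1.1e-08) and by 3.42 ± 0.18 in monocytes (adjusted p = 2.0e-12). The activated call was kept in every setting run, but its size was not: it was 3.45 on total UMIs and 1.52 (adjusted p = 0.00030) with the neutrophil gates given priority over the lineage lists, where the monocyte value was 2.24. Cells with 3 or more UMIs of a lineage list had been kept out of the activated and mature classes. Low sums of these lists were thus partly set by the gates and cannot show that other lineages had no part. In activated cells of YO2, 1 of the 6 T and NK markers was seen. The list summed to 3.03 CPM there against 10.7 and 11.7 CPM in mature cells, and Cd3e, Cd3g, Trbc2, Nkg7 and Klrb1c were at 0. The monocyte list summed to 275 and 266 CPM in activated cells, against 308 and 274 CPM in mature cells, and the macrophage list to 18.3 and 55.6 CPM against 14.2 and 22.9 CPM. The eosinophil list moved with Il2rg, at 91.6 and 244 CPM in activated cells, against 42.8 and 43.5 CPM in mature cells. This was almost all Siglecf, at 91.6 and 235 CPM in activated cells (5 and 233 UMIs), against 27.6 and 35.8 CPM in mature cells; Ccr3 stood at 0 and 9.09 CPM, and Alox15 and Epx were at 0. Its part in the result was not tested. Activated cells of YO1 were too few for the fit, and their interval includes the YO1 mature value and ends just below the YO2 activated one. Along the activation UMIs, Il2rg in YO2 was 18.3, 56.8, 118, 131 and 140 CPM, so that it was higher already at 1 UMI, below the gate. In YO1 it was 14.5, 37.2, 16.1, 0 and 112 CPM, with 1, 0 and 2 UMIs in the last bins, so the stepwise pattern was seen in YO2 alone.

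In immature cells Il2rg was higher by 1.32 ± 0.22 log2 in cycling cells (edgeR adjusted p = 2.3e-05) and by 1.47 ± 0.20 in Ltf-high cells (adjusted p = 2.6e-06). Both calls were lost when the neutrophil gates were given priority over the lineage lists (0.51 and 0.34, adjusted p of 0.080 and 0.31). T and NK markers summed to 23.0 and 18.9 CPM in cycling cells and 16.5 and 18.6 CPM in Ltf-high cells. Mature cells had 10.7 and 11.7 CPM, and 3 to 4 of the 6 markers were seen in the immature classes. The list holds Nkg7, which most cells meeting the progenitor gate held, and its share of these sums is not given here. The part of these markers in the result was not tested. Progenitors (1.27 ± 0.54, adjusted p = 0.074) and Ngp-high cells (0.27 ± 0.45, adjusted p = 0.82) did not pass. The progenitor value rests on 9 UMIs. Cells gated on eosinophil genes were called higher (1.70 ± 0.25, adjusted p = 4.9e-06), a call lost under the same priority of gates (0.49), which leaves 291 and 89 of the 325 and 99 cells in this class. The progenitor value passed with total UMIs (2.10), DESeq2 (2.04) and stricter gates (1.22), and was 0.010 (adjusted p = 0.99) with the neutrophil gates given priority.

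**Figure D3:**
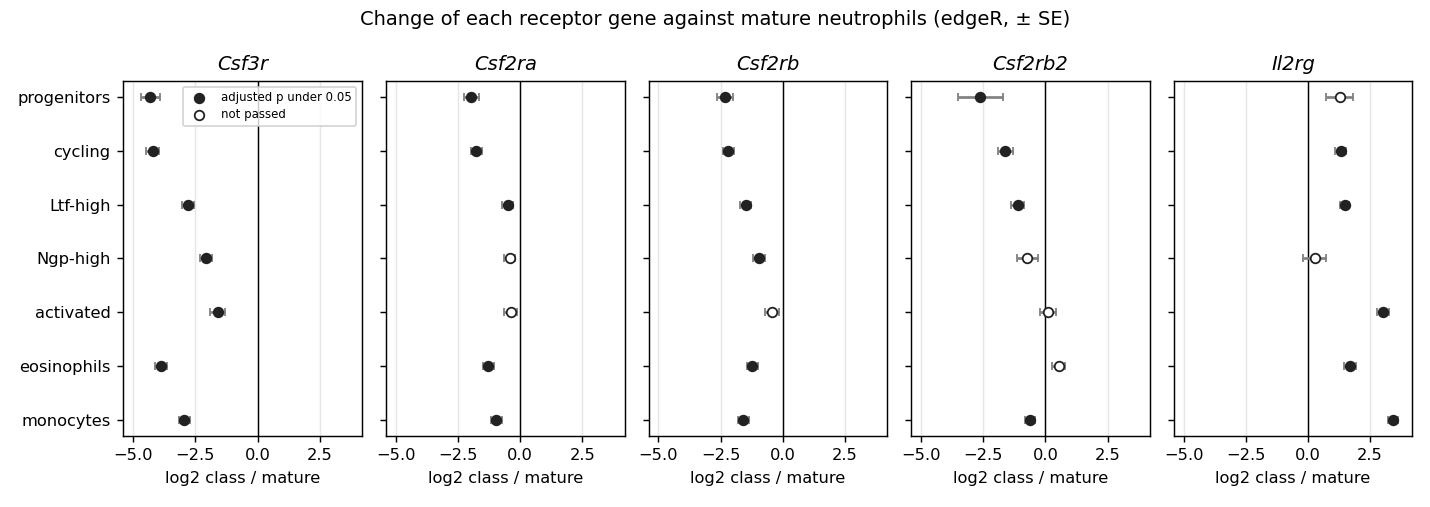
Log2 change of each gene in 7 classes against mature neutrophils from the edgeR fit, with SE as bars; filled points passed an adjusted p of 0.05 and open points did not. Csf3r was lower in all 7 classes, from -4.32 in progenitors to -1.60 in activated cells, and Il2rg was higher in cycling, Ltf-high, activated and eosinophil-gated cells and monocytes (1.32 to 3.42).

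Read against the background, changes were common in these contrasts. Of all genes tested, 37.9% were called in progenitors, 65.4% in cycling cells, 47.7% in Ltf-high cells, 14.6% in Ngp-high cells, 26% in activated cells, 60.7% in eosinophil-gated cells and 72.1% in monocytes. By direction, 21.6% were called lower and 16.3% higher in progenitors, where 4 of the 5 receptor genes were called lower and 0 higher. In cycling cells 31% were lower and 34.4% higher, against 4 and 1 of the receptor genes. In Ltf-high cells the shares were 24.2% and 23.5%, against 4 and 1. Ngp-high cells had 9.97% lower and 4.68% higher, against 2 (Csf3r and Csf2rb) and 0. Activated cells had 13.5% lower and 12.5% higher, against 1 (Csf3r) and 1 (Il2rg). Cells gated on eosinophil genes had 29.8% and 30.9%, against 3 and 1, and monocytes 35% and 37.2%, against 4 and 1. The direction of many calls depends on the scale.

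Under total UMIs in place of TMM, the median log2 change over all genes was 0.33 in progenitors, 0.65 in cycling cells, 0.36 in activated cells, 0.86 in eosinophil-gated cells and 0.85 in monocytes, against -0.50, 0.12, -0.05, -0.05 and 0.06 under TMM. Higher and lower calls numbered 2683 and 1152 in progenitors under total UMIs against 1711 and 2273 under TMM, and 4872 and 2217 in cycling cells against 3616 and 3256. In activated cells they numbered 2159 and 771 against 1316 and 1422, in eosinophil-gated cells 5018 and 1395 against 3247 and 3137, and in monocytes 5990 and 1694 against 3910 and 3674. With DESeq2 they numbered 2900 and 1068 in progenitors, 4254 and 2094 in cycling cells, 653 and 567 in Ngp-high cells (492 and 1048 under TMM), 1806 and 748 in activated cells, 4313 and 1686 in eosinophil-gated cells and 4569 and 2104 in monocytes. Csf3r stayed lower than in mature cells in all 7 classes on total UMIs, at -1.21 ± 0.28 in activated cells and -3.68 ± 0.24 in cycling cells. Csf2ra in activated cells moved to 0.01 and passed on neither scale.

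The eosinophil gate (Ccr3, Siglecf, Alox15 and Epx) gave different cells in the pools. In YO1 these cells held 1065 CPM of Ccr3 and 903 CPM of Alox15, against 113 and 53.2 CPM in YO2, where 85 of 99 cells had Siglecf. Epx was at 0 in both. Values above for this class therefore describe cells gated on eosinophil genes. With the YO2 sum left out, the log2 changes were -3.74 for Csf3r, -1.47 for Csf2ra, -1.46 for Csf2rb, 0.22 for Csf2rb2 and 1.56 for Il2rg. With Siglecf left out of the list, a choice made after the data were seen, 414 and 35 cells were gated; Csf3r stayed lower (-2.39), while Il2rg (-0.11) and Csf2rb2 (-0.24) turned and did not pass.

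Within the mature class Csf3r varied little between subsets gated on other genes. It stood at 2222 and 2467 CPM in cells with interferon-induced genes (Ifit1, Ifit3, Rsad2, Isg15), 2434 and 2539 CPM in cells with Scnn1a or Slc40a1, 2177 and 2425 CPM in cells with Stfa2l1 or Asprv1 and 2291 and 2423 CPM in cells with Trem1 or Cd14. Csf2ra ranged from 812 CPM in the interferon cells of YO1 to 1130 CPM in the Scnn1a or Slc40a1 cells of YO2. Il2rg was 25.2 and 19.2 CPM in the interferon cells (13 and 20 UMIs), against 7.67 and 12.5 CPM in the remaining mature cells. These subsets share libraries and were not tested. Cells of no class with little S100a8 and S100a9, which met no lineage list, held Csf3r at 1456 and 2095 CPM and Il2rg at 50.01 and 53.8 CPM. Among them, Csf3r was 860 and 1682 CPM where S100a8 and S100a9 made under 1% of UMIs. It was 2522 and 2689 CPM at 1% to under 2%, above the mature class. Mature cells at 8% or more held 1864 and 2168 CPM, against 2690 and 2664 CPM at 2% to under 4%. Csf3r thus did not follow the S100a8 and S100a9 gate.

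The rest of the pathway was followed with 43 genes in lists of ligands, partner receptors, kinases and adaptors, STATs, feedback inhibitors and targets, 35 of which were abundant enough to test. The ligand genes themselves were almost silent: Csf2 (GM-CSF) had 1 UMI over the classes of the fit, Csf3 (G-CSF) at most 2 in any class of a pool, and Il5 0. Csf1, the ligand of the macrophage receptor, was the exception. It had 934 and 1069 CPM in activated cells, 13.8 and 65.2 CPM in cycling cells and 363 and 419 CPM in mature cells; cycling cells were called lower (-4.38 ± 0.37, edgeR adjusted p = 1.3e-09) and activated cells did not pass (0.48 ± 0.37, adjusted p = 0.37).

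Among 7 tested partner chains, 4 were lower and 1 higher in cycling cells, led by Csf1r (the macrophage colony-stimulating factor receptor; -4.89 ± 0.30), Il13ra1 (-4.59 ± 0.37) and Il4ra (the interleukin-4 receptor alpha chain; -2.85 ± 0.22). The higher one was Il3ra (1.502 ± 0.41, edgeR adjusted p = 0.0031), with 67 UMIs in cycling cells of YO1 and 0 in YO2, so it rests on 1 pool. In monocytes Il3ra had 31.0 and 19.7 CPM, against 4.36 and 2.02 CPM in mature cells (2.25 ± 0.32, adjusted p = 2.7e-06). In activated cells 2 of the 7 were lower, Csf1r (-1.12 ± 0.29) and Il13ra1 (-0.98 ± 0.34), and 0 higher. Il5ra was seen mainly in eosinophil-gated cells, with 16 UMIs in YO1 and 1 in YO2, against 3 and 3 in the far larger mature class. Csf1r is itself on the monocyte list, so its monocyte value is not a result. Neutrophil classes held only cells with fewer than 3 UMIs of that list. Median depth was 5768 and 6423 UMIs in cycling cells and 1006 and 1330 in mature cells, so this limit was tighter on CPM in cycling cells. The cycling and activated values of Csf1r, and its part in the counts of lower chains, are therefore not results either.

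Of 13 kinases and adaptors, 9 were lower and 2 higher in cycling cells (median log2 -1.37, against 0.12 over all genes), and 8 lower and 2 higher in Ltf-high cells (median -0.69, against -0.05). In Ngp-high cells 5 were lower and 8 did not pass (median -0.86, against -0.48). The list was lower outside the immature classes too, with 10 lower and 1 higher in eosinophil-gated cells and 9 lower and 2 higher in monocytes. Gab2, an adaptor, was the furthest in cycling cells (-3.27 ± 0.24), followed by Syk and Lyn (-2.29 ± 0.21 and -2.26 ± 0.21). In activated cells only Jak2 of the 13 was higher, at 420 CPM in YO2 against 80.8 and 84.4 CPM in mature cells (2.004 ± 0.25, edgeR adjusted p = 6.8e-06). The 25 activated cells of YO1 had 54.9 CPM of Jak2 on 3 UMIs, with an interval of 11.3 to 161 CPM that excludes the YO2 value. Pik3r1 (-1.77 ± 0.28) and Lyn (-0.98 ± 0.25) were lower there. Jak3, the partner of the gamma chain, had 17.2 CPM in activated cells of YO2 and 10.4 and 8.06 CPM in mature cells and did not pass (0.48 ± 0.46, adjusted p = 0.48).

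Of 4 STAT genes, 3 were lower and 0 higher in cycling cells (median -1.95), in Ltf-high cells (median -1.19) and in monocytes (median -1.19), with Stat5a not passing in any of them. The medians over all genes were 0.12, -0.05 and 0.06, and 31%, 24.2% and 35% of all genes were called lower. Stat3, used by the G-CSF receptor, changed by -1.74 ± 0.23 in cycling cells (190 and 198 CPM, against 435 and 453 CPM in mature cells). Stat5b changed by -2.17 ± 0.20 and Stat6 by -2.40 ± 0.25 in cycling cells. In activated cells Stat5b was lower (-1.77 ± 0.27, edgeR adjusted p = 4.6e-05), while Stat3 (-0.75 ± 0.29, adjusted p = 0.057), Stat6 (-0.72 ± 0.30, adjusted p = 0.075) and Stat5a (0.03 ± 0.46, adjusted p = 0.97) did not pass.

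The feedback inhibitors split. Socs3, which restrains G-CSF receptor signalling, had 15.8 and 21.0 CPM in cycling cells, 19.6 and 40.9 CPM in Ltf-high cells and 49.7 and 51.8 CPM in Ngp-high cells, against 456 and 298 CPM in mature cells. It was called lower in each (-5.002 ± 0.33, -3.78 ± 0.28 and -2.99 ± 0.34, edgeR adjusted p of 3.6e-11, 5.3e-10 and 3.1e-06). Activated cells had 348 and 240 CPM of Socs3 and were called lower from the YO2 sum (-1.07 ± 0.33, adjusted p = 0.020). Cish, an inhibitor induced by STAT5, went the other way: 35.4 CPM in activated cells of YO2 (35 UMIs in 27 of 564 cells), 7.55 and 9.56 CPM in Ltf-high cells and 1.71 and 1.73 CPM in mature cells. It was called higher in activated cells (3.74 ± 0.48, adjusted p = 6.8e-06) and in Ltf-high cells (2.30 ± 0.38, adjusted p = 3.2e-05). The call was also made in eosinophil-gated cells, where the change was as large (3.82 ± 0.41, adjusted p = 8.0e-08, 49.3 and 40.4 CPM), in Ngp-high cells (2.39 ± 0.75, adjusted p = 0.036, on 7 and 1 UMIs) and in monocytes (1.35 ± 0.36, adjusted p = 0.0020). Socs2 was higher in activated cells too (2.97 ± 0.45), but its 30 UMIs came from 8 cells, and in eosinophil-gated cells (3.57 ± 0.36). The eosinophil list, mainly Siglecf, was higher in these activated cells, as given beside Il2rg, and its part in these results was not tested. In the activated cells of YO1, Cish and Socs2 had 1 UMI each.

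Of the 6 targets, 6 were lower in cycling cells (median -3.49, against 0.12 over all genes) and 4 in Ltf-high cells (median -2.32, against -0.05). Pim1, a survival kinase induced by STAT5, and Mcl1, which protects neutrophils from apoptosis, changed by -3.64 ± 0.26 and -3.65 ± 0.26 in cycling cells, and Osm, which encodes the cytokine oncostatin M, by -3.90 ± 0.44. In activated cells of YO2 Pim1 reached 14437 CPM, against 2283 and 3088 CPM in mature cells (1.54 ± 0.29, edgeR adjusted p = 0.00044), and 99.6% of these cells held a UMI. Activated cells of YO1 had 3424 CPM, with an interval of 2951 to 3952 CPM. The YO1 cells were above the mature cells of their own pool but far below the YO2 cells. Osm (-2.22 ± 0.53) and Mcl1 (-1.01 ± 0.31) were lower in activated cells.

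**Figure D4:**
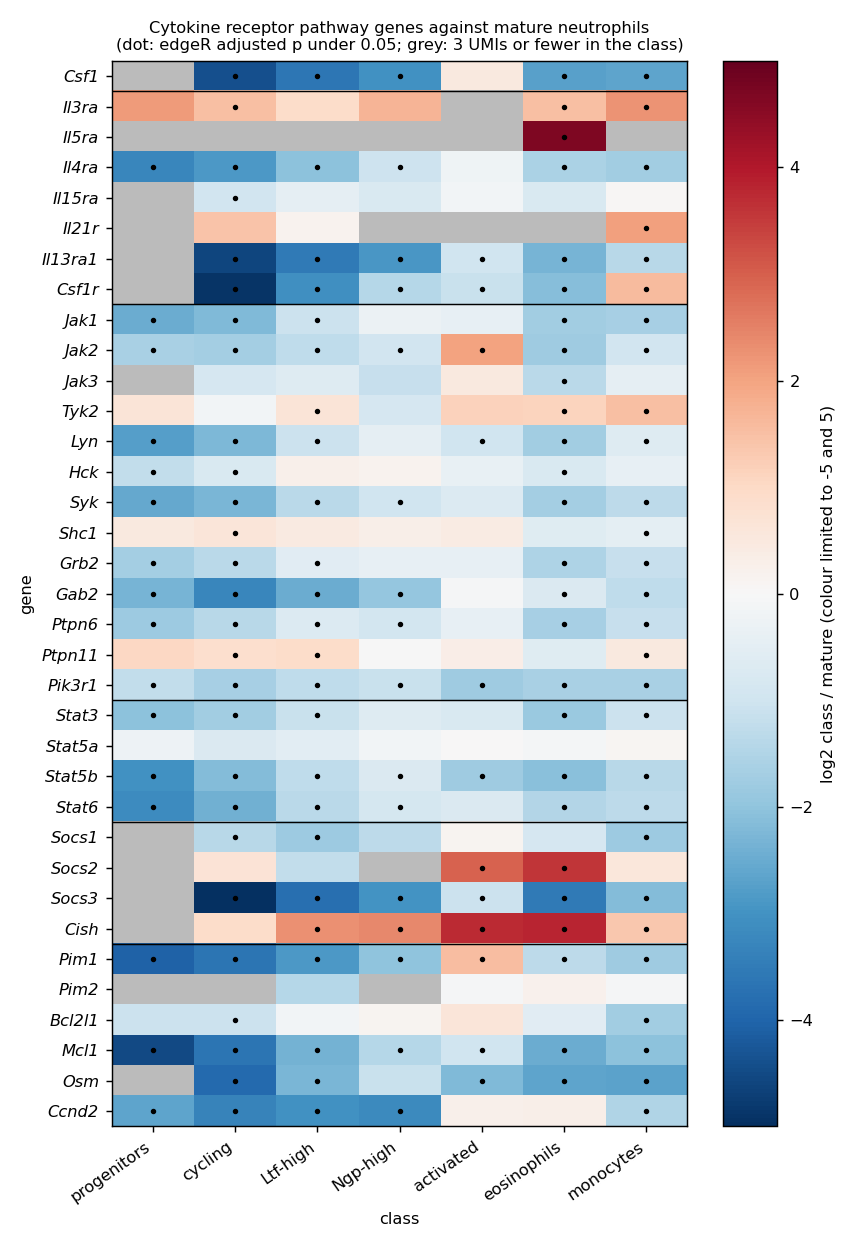
Log2 change against mature neutrophils of 35 tested pathway genes (rows, grouped by role: ligand, partner receptors, kinases and adaptors, STATs, feedback inhibitors, targets) in 7 classes (columns), with a dot where the edgeR adjusted p passed 0.05 and grey where the class held 3 UMIs or fewer. Most rows are lower (blue) in cycling and Ltf-high cells, and Jak2 (2.004), Cish (3.74), Socs2 (2.97) and Pim1 (1.54) are higher (red) in activated cells.

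Genes with the most similar pattern were ranked by Pearson's r of log2(CPM + 1) over the 14 class sums, among 5302 genes averaging at least 20 CPM. The sums share their library and scale, so r is a description. For Csf3r they were H2-Q10 (r = 0.98), Ifitm1 (0.98), Ddx6 (0.97), Supt4a (0.97) and Kctd12 (0.96). Csf2ra was closest to Cyb5r1 (0.95), Hsd17b11, Fos, Picalm and Rnf149 (0.93 for each of these). For Csf2rb they were Rab32 (0.97), Hist1h2bc (0.96), Cebpb (0.95), Tnfaip2 (0.95) and Fth1 (0.95). Csf2rb2 was closest to Cstb (0.96), Sgta (0.93), Snx10 (0.93), Lipa (0.92) and Itgax (0.92), and Il2rg, less closely, to Golga7 (0.90), Ccdc50 (0.90), Arl5a (0.89), Wdr3 (0.89) and Nfkb1 (0.88).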

How the data were processed

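The authors deposited 1 matrix of raw UMI counts (genes by barcodes). The build is mm10 per the submitters' processing notes; aligner, annotation and cell calling: not given in the sources used here. Each pool is 1 library, with 39713846 and 41839786 UMIs over all barcodes. Sample tag libraries were not analysed here. The members, lists and gates were chosen with earlier results of these data known. Filters left out 847 and 505 barcodes. No doublets were removed. UMIs were summed per pool and class where at least 30 cells were present (14 sums of 8 classes, 5 residual degrees of freedom) and tested in R 4.3.3 by edgeR 4.0.16 (filterByExpr, then TMM, then two-sided quasi-likelihood tests). Pool was a block because all classes of a pool share a cartridge. SE is the absolute log2 change divided by the square root of the F statistic. DESeq2 1.42.0, other gates, filters and scales, and leaving out each sum were alternatives. CPM carry exact 95% Poisson intervals and shares of cells Clopper-Pearson intervals, which cover counting error only. Whether the pools hold separate animals is not given for the barcodes, so p-values measure only the spread between pools. Besides the members, pathway genes were named if called with one of the 3 largest absolute log2 changes of their list in a contrast, plus Il3ra, Il5ra, Jak2, Jak3, Stat3, Stat5a, Stat5b, Socs3, Cish and Pim1. Csf2, Csf3 and Il5 were named after their values were seen. A gene of the pathway lists is not reported here and was left out of list counts and medians. The fit was also run on simulated counts in which a limited set of genes was changed in a single class. Far more genes were called in these data, so that run cannot show how the fit or its scale behaves here. Figures were drawn with matplotlib 3.10.9, and sums and intervals came from scipy 1.17.1, pandas 2.3.3 and numpy 2.4.6 under Python 3.11.15.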

Additional observations from a re-analysis of the deposited data

How the results depend on the processing

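Csf3r stayed called lower in all 7 classes wherever a setting gave a test, and at least 500 UMIs per cell or no low-count filter changed no call of the receptor genes. On total UMIs, Csf2ra in activated cells (0.013) and Csf2rb2 in monocytes (0.18) turned without passing. Calls were lost there for Csf2ra in eosinophil-gated cells (-0.37) and monocytes (-0.16), Csf2rb in eosinophil-gated cells (-0.33) and Csf2rb2 in progenitors (-1.78), and gained for Csf2rb2 in eosinophil-gated cells (1.44) and Il2rg in progenitors (2.10). DESeq2 lost Csf2rb2 in progenitors (-1.81) and monocytes (-0.15) and gained Csf2rb2 in eosinophil-gated cells (1.11) and Il2rg in progenitors (2.04). Without the replicate block (the pool), Csf2ra in Ltf-high cells (-0.49) and Csf2rb2 in progenitors (-2.997) and monocytes (-0.62) were lost, and no other call changed. With the neutrophil gates given priority over the lineage lists, which changed the cells of every fitted class and added an activated sum of YO1, Il2rg in Ngp-high cells turned (-0.82, not passing), calls were lost for Csf2ra in Ltf-high cells (-0.58), Csf2rb2 in monocytes (-0.54) and Il2rg in Ltf-high (0.34), cycling (0.51) and eosinophil-gated cells (0.49), and Csf2ra (-1.24) and Csf2rb (-1.11) in activated cells passed, and Il2rg stood at 1.52 in activated cells and 0.010 in progenitors; 3014, 720 and 5360 genes were called in Ltf-high, Ngp-high and activated cells, against 5011, 1540 and 2738. Stricter gates turned Il2rg in Ngp-high cells (-0.031, not passing), gained it in progenitors (1.22) and called 766 genes in Ngp-high cells. Without the deepest 5% of cells Csf2ra in Ltf-high cells was lost (-0.47), and progenitors (16 cells) could not be fitted. With Siglecf out of the eosinophil list and a lower UMI threshold, a setting chosen after seeing the data, Csf2rb2 (-0.24) and Il2rg (-0.11) turned in that class. There 2669 genes were called against 6384, and Csf2ra in Ltf-high cells was lost (-0.50). Leaving out 1 sum or 1 pool at a time, which gave no test where a whole pool was left out, gave Csf2ra -0.60 to -0.38 in Ltf-high and -1.52 to -1.04 in eosinophil-gated cells, Csf2rb -1.24 to -0.78 in Ngp-high and -1.50 to -0.98 in eosinophil-gated cells, and Csf3r -3.09 to -2.48 in Ltf-high and -4.60 to -3.79 in cycling cells. It gave Csf2rb2 -2.72 to -2.20 in progenitors, -2.11 to -0.62 in cycling, -1.35 to -0.79 in Ltf-high, -0.23 to 0.29 in activated and 0.12 to 0.86 in eosinophil-gated cells and -0.85 to -0.33 in monocytes. Il2rg ranged from 0.047 to 0.93 in Ngp-high cells and from 3.22 to 3.56 in monocytes. Counts of called genes ranged from 4045 to 6669 in cycling, 2941 to 3974 in Ltf-high, 259 to 1172 in Ngp-high and 1661 to 2197 in activated cells. Except where stated, the cause was not tested. Single levels moved beyond their counting interval for 28 of 75 values with that priority, 27 under stricter gates and 18 as means over cells. Csf2rb2 in progenitors and in Ngp-high cells of YO2 rested on 3 UMIs or fewer. So did Il2rg in Ngp-high cells of YO2 and in activated cells of YO1, which limits all of these values.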

Other observations

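Basophils and mast cells (50 cells in YO1 and 32 in YO2), gated on Mcpt8, Cpa3, Ms4a2, Mcpt4 and Fcer1a, held Csf2rb at 2706 and 3336 CPM, against 777 and 902 CPM in mature neutrophils. Csf2rb2 stood at 822 and 1108 CPM in basophils and mast cells and at 33.1 and 43.8 CPM in mature neutrophils. After thinning to 500 UMIs, a Csf2rb2 UMI was found in 32.0% and 37.5% of the basophils and mast cells and in 1.63% and 2.15% of the mature neutrophils. These cells entered no test.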
